A study of Mus musculus with 35 samples.

Results

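The comparison concerned 12 female mice that had all received Htt ASO, an antisense oligonucleotide directed at huntingtin mRNA: 6 heterozygous HttQ111/+ mice and 6 Htt+/+ mice, out of 35 mice in the whole experiment. Members were taken from the genotype and treatment labels alone, and the treatment labelled ASO1 was read as Htt ASO. Both genotypes were on a C57BL6/J background and shared the injections, which were given intraperitoneally each week at 50 mg/kg starting at the age of 2 months and ending with sacrifice at 10 months (299 to 302 days for HttQ111/+ and 300 to 303 days for Htt+/+ mice). HttQ111/+ mice carry an expanded CAG repeat in 1 of the huntingtin alleles, at the gene's own locus, so that the mutant allele is expressed wherever the normal gene is. The other 23 mice, used here to set the spread and as a reference, were HttQ111/+ and Htt+/+ animals on weekly saline (4 µL/g, 6 and 6 mice) or weekly control ASO, an oligonucleotide without a matching sequence in mice (50 mg/kg, 6 and 5 mice). Mice were perfused with saline, and each library came from the striatum of 1 mouse, the right hemistriatum except in 1 Htt+/+ Htt ASO mouse labelled as the left.

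The striatum is built mostly of medium spiny neurons, the GABA-releasing projection cells that are lost first in Huntington's disease. Cells of the direct pathway carry the dopamine receptor D1 and make substance P and dynorphin, and cells of the indirect pathway carry the D2 and adenosine A2a receptors and make enkephalin. In both, dopamine acts through cyclic AMP and protein kinase A, and expanded huntingtin is known to lower many of the transcripts that give these neurons their identity. The repeat lies in the first coding exon. The reference mouse sequence of that stretch is shown because it holds the repeat. It runs from the start codon at chr5:34761907-34762038 (GRCm38, plus strand, exon 1 of Htt, coding sequence), and capitals mark its longest unbroken run of CAG, 4 codons. The CAG run is expanded in the Q111 allele, whose own sequence is not shown.
Htt, reference mouse allele: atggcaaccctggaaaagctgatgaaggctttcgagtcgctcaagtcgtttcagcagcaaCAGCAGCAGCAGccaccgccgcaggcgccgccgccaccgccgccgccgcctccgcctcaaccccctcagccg

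Libraries of the 12 mice held 32200158 to 38484693 counts, with medians of 34807224 in HttQ111/+ and 37045267 in Htt+/+ mice. Values are given as CPM, a count scaled to a common library size with TMM factors, a level within 1 gene that is not corrected for transcript length and is therefore not compared between genes. TMM factors were 1.01 to 1.033 in HttQ111/+ and 0.9777 to 0.9879 in Htt+/+ mice, without overlap, so the scaling bears on every small difference. The tissue carried the medium spiny neuron markers in all 12 libraries: Ppp1r1b, which encodes DARPP-32, measured from 1036 to 1816 CPM. Summed markers of neighbouring cortex lay between 24.34 and 61.74 CPM in HttQ111/+ and between 22.41 and 60.4 CPM in Htt+/+ mice. The L number in the sample titles was read as the sequencing lane, and the 12 libraries lay in 6 lanes, 3 of which held both genotypes. In bulk tissue, fewer cells of a type and less RNA per cell cannot be told apart.

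Huntingtin itself, listed as Hdh in the deposited table, is the transcript that both the mutation and the ASO concern. It measured 60.9 to 83.6 CPM in the 6 HttQ111/+ mice (median 72.0) and 66.6 to 104 CPM in the 6 Htt+/+ mice (median 85.4). The ranges overlapped, and the Htt+/+ mouse with the left hemistriatum was the lowest of its group. The log2 fold change of HttQ111/+ over Htt+/+ mice was −0.25 (SE 0.0941, 95% interval −0.44 to −0.06), with an adjusted p of 0.0567 that narrowly missed the threshold of 0.05 (exact two-sided permutation p = 0.0584). Lanes 3, 4 and 5, which held both genotypes, gave log2 differences of −0.28, −0.04 and −0.10. The group mean was 71.6 ± 8.35 CPM (SD, n = 6) in HttQ111/+ mice on Htt ASO, beside 79.2 ± 8.58 (SD, n = 6) on saline and 75.2 ± 7.74 (SD, n = 6) on control ASO. In Htt+/+ mice the corresponding means were 85.3 ± 13.01 (SD, n = 6), 90.2 ± 11.0 (SD, n = 6) and 89.7 ± 8.78 (SD, n = 5). Treatments were not compared within a genotype here. The paper describes ASOs given outside the brain as effectively excluded from it. It found no effect of Htt ASO on total or mutant huntingtin protein in the striatum. The genotype difference on Htt ASO departed from that on saline by −0.06 and from that on control ASO by 0.01 on the log2 scale, with adjusted p of 0.939 and 0.999. The deposited table has 1 row for the gene and does not divide its reads between the alleles. Among 9 tested genes at the locus, Htt included, 3 were higher and 1 lower, beside 10.9% and 10.2% of all genes, and in lanes 3, 4 and 5 alone 0 were higher and 1 lower. The neighbours Mfsd10 (0.29, listed as 0610009O03Rik), Dok7 (0.28) and Nop14 (0.13, listed as Nol14) rose, Dok7 with a negative difference in lane 5 (−0.10), and Add1, the gene of the cytoskeletal protein adducin, fell by 0.14 on the log2 scale.

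Of 17639 tested genes, 1929 (10.9%) were called higher and 1804 (10.2%) lower in HttQ111/+ than in Htt+/+ mice, at an adjusted p under 0.05. The 3733 genes called had a median log2 fold change of 0.224 regardless of sign, and 113 genes exceeded 1 in size. The 6 HttQ111/+ mice lay wholly above the 6 Htt+/+ mice for 898 genes (5.09%) and wholly below for 980 (5.56%). With library totals in place of TMM, 5324 genes were called, 76.5% of them higher against 51.7% with TMM, and the median of all genes moved from 0.00574 to 0.0599, so that the balance of small increases over decreases depends on the scaling. With mice of lanes 3, 4 and 5 alone, 1912 genes were called, 825 higher and 1087 lower.

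**Figure D1:**
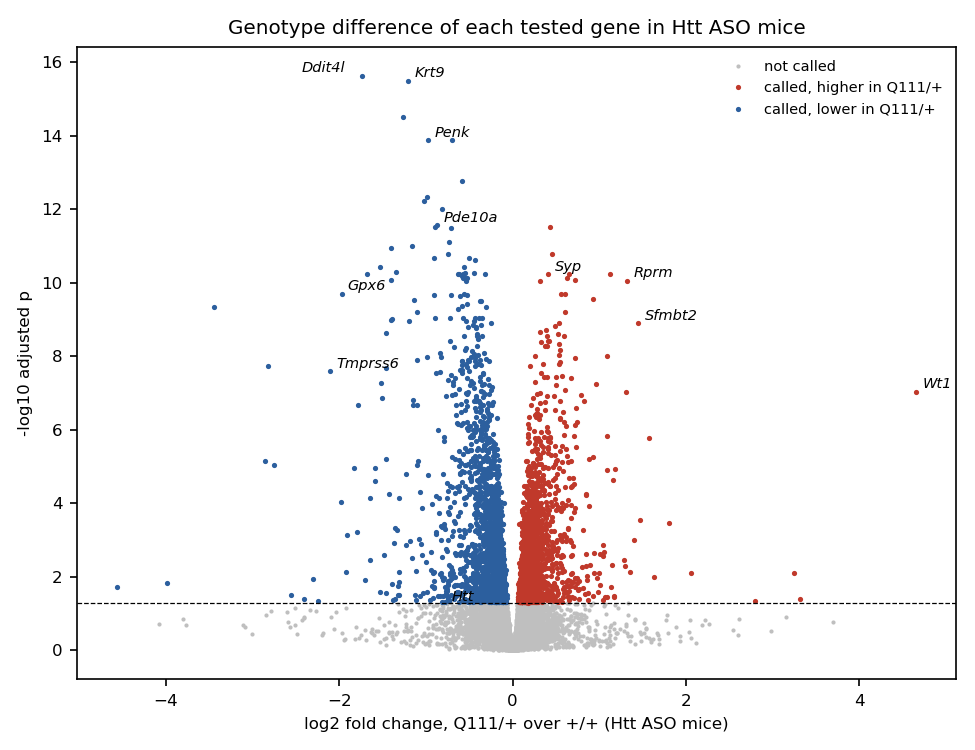
Each point is 1 of 17639 tested genes in Htt ASO mice, with the log2 fold change of HttQ111/+ over Htt+/+ mice on the x axis and −log10 of the adjusted p on the y axis. The dashed line marks 0.05, the 1929 red points were called higher and the 1804 blue points lower, and the smallest adjusted p values belong to decreases.

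The 10 genes with the smallest adjusted p all fell in HttQ111/+ mice, and for each of them the 2 genotypes did not overlap. Ddit4l, a relative of the stress-induced inhibitor of mTOR signalling Ddit4, led them. It measured 10.1 to 13.3 CPM in HttQ111/+ mice (median 11.5) and 36.6 to 40.5 CPM in Htt+/+ mice (median 39.03), a log2 fold change of −1.74 (SE 0.0839, adjusted p = 2.31e-16), which leaves 29.95% of the Htt+/+ level. Krt9, a keratin gene, lay between 18.8 and 23.5 CPM against 46.4 to 57.6 CPM (log2 fold change −1.21, adjusted p = 3.18e-16). Ptprv, a phosphatase gene, fell by 1.27 on the log2 scale. The remaining genes were Penk, Ppp4r4 (−0.70, listed as 8430415E04Rik), the transcriptional repressor Zbtb18 (−0.59, listed as Zfp238), the sodium channel subunit Scn4b, the pro-apoptotic BH3 gene Hrk (−1.02), the kainate receptor partner Neto2 (−0.82) and Pde10a. All 10 were called under every alternative analysis and without each mouse in turn.

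Indirect pathway genes were reduced. Of 7 tested markers, 6 (85.7%) were called lower and 0 higher, beside 10.2% of all genes called lower, with a median log2 fold change of −0.614. Penk, which encodes proenkephalin and is listed as Penk1, measured 771 to 921 CPM in HttQ111/+ mice (median 820) and 1531 to 1748 CPM in Htt+/+ mice (median 1618). Every HttQ111/+ mouse lay well below every Htt+/+ mouse, and the log2 fold change was −0.98 (SE 0.0563, adjusted p = 1.32e-14). Drd2, the D2 receptor gene, measured 113 to 135 CPM (median 126) against 170 to 187 CPM (median 184), a log2 fold change of −0.55 (SE 0.0461, adjusted p = 7.29e-11). Adora2a, the adenosine A2a receptor gene, measured 162 to 185 CPM (median 175) against 258 to 308 CPM (median 285), and fell by 0.71 on the log2 scale (SE 0.0632, adjusted p = 2.21e-10). The orphan receptor Gpr6 (−0.61), Upb1 (−0.73) and Plxdc1 (−0.32) also fell without overlap. Sp9, a transcription factor gene needed for the making of these neurons, was the exception at 0.10 (adjusted p = 0.485).

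Direct pathway genes moved both ways. Of 8 tested markers, 3 were lower (37.5%) and 2 higher (25%), beside 10.2% and 10.9% of all genes, and the median was −0.0553. Drd1a, the D1 receptor gene (current symbol Drd1), measured 203 to 233 CPM in HttQ111/+ mice (median 220) and 296 to 334 CPM in Htt+/+ mice (median 309). The groups were apart, with a log2 fold change of −0.52 (SE 0.0473, adjusted p = 3.75e-10; exact permutation p = 0.00216, the smallest that 6 against 6 mice can give), or 30.3% less. Chrm4, the muscarinic M4 receptor gene, fell by 0.46 and Sfxn1, a mitochondrial serine carrier gene, by 0.37 on the log2 scale. The precursors of the pathway's peptides were not called. Tac1, the substance P precursor, measured 238 to 272 CPM against 244 to 257 CPM (log2 fold change 0.03, adjusted p = 0.705), and Pdyn, the dynorphin precursor, 44.4 to 50.8 CPM against 48.7 to 52.3 CPM (−0.05, adjusted p = 0.633). Isl1, a LIM homeobox gene of direct pathway neurons, rose from 14.3 to 16.1 CPM in Htt+/+ mice to 18.2 to 20.7 CPM in HttQ111/+ mice (log2 fold change 0.36, adjusted p = 1.61e-06), without overlap. Eya1 rose by 0.20.

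**Figure D2:**
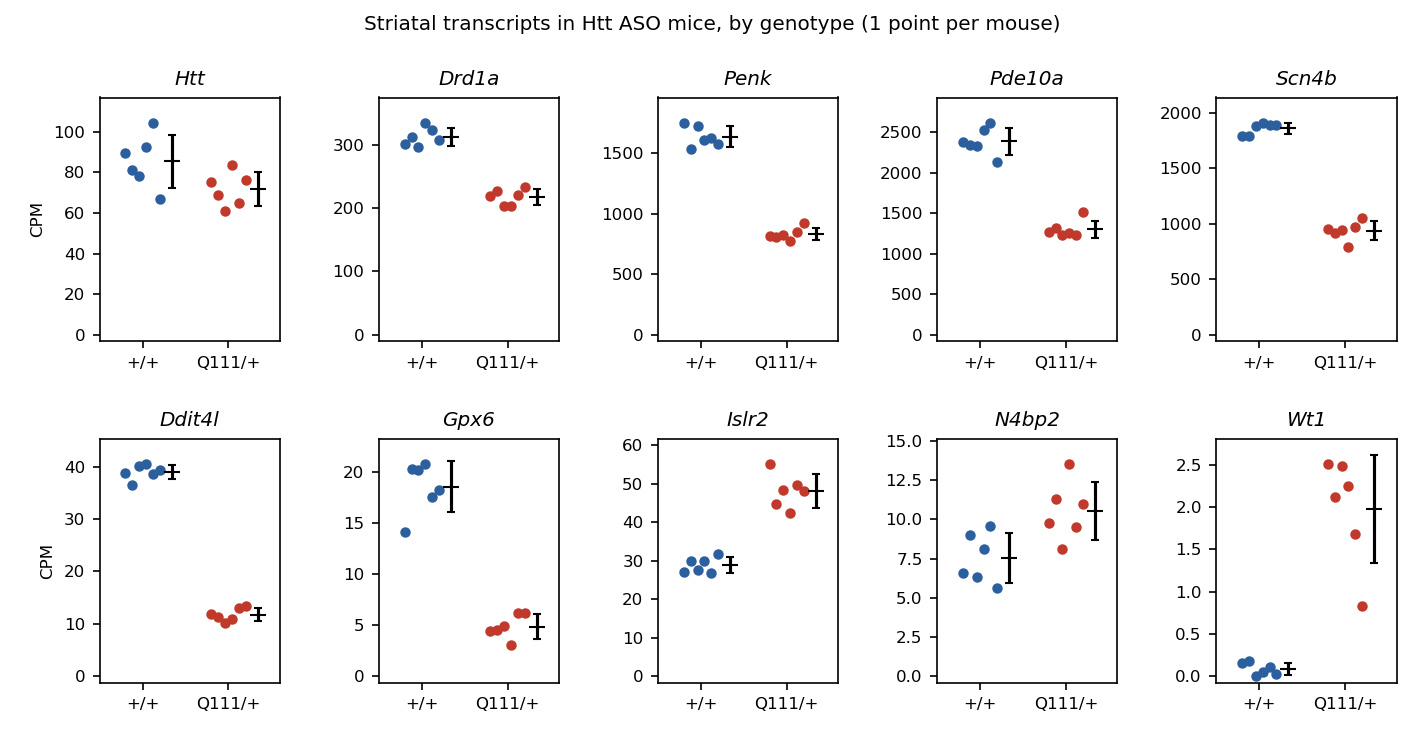
Points are the CPM of each mouse on Htt ASO, 6 Htt+/+ (blue) and 6 HttQ111/+ (red), with the mean and SD of each group beside them and a y axis of its own for each gene. The 2 genotypes are apart for Drd1a, Penk, Pde10a, Scn4b, Ddit4l, Gpx6, Islr2 and Wt1, and overlap for Htt and N4bp2.

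Genes shared by both kinds of medium spiny neuron fell almost as a whole. Of 25 tested, 23 (92.0%) were lower and 0 higher, beside 10.2% and 10.9% of all genes, with a median of −0.452. Without overlap 20 were lower, beside 5.56% of all genes. Pde10a, the phosphodiesterase of the striatum that degrades cAMP and cGMP, measured 1233 to 1513 CPM in HttQ111/+ mice (median 1260) and 2126 to 2614 CPM in Htt+/+ mice (median 2362). Its log2 fold change was −0.87 (SE 0.0623, adjusted p = 2.74e-12), a loss of 45.4%, and lanes 3, 4 and 5 gave −0.93, −0.62 and −0.77. Scn4b measured 796 to 1051 CPM against 1795 to 1910 CPM (−0.99, adjusted p = 4.66e-13). Cnr1, the cannabinoid receptor CB1 gene, measured 195 to 261 CPM against 388 to 479 CPM (−0.90, adjusted p = 2.16e-11). The phosphoprotein genes Arpp21 (−0.74), Pcp4 (−0.63) and Ppp1r1b (−0.53) and the phosphatase gene Ptpn5 (−0.45) were lower as well. Smaller decreases were seen in transcription factors of these neurons, with log2 fold changes of −0.34 for Rarb, −0.22 for Bcl11b and −0.20 for Foxp1. The 2 genes not called were Dclk3 (−0.07, adjusted p = 0.312) and Strip2 (0.13, adjusted p = 0.158, listed as D330017J20Rik).

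Within cAMP and protein kinase A signalling, 14 of 27 tested genes were lower (51.9%) and 4 higher (14.8%), beside 10.2% and 10.9% of all genes. The cyclase Adcy5 (−0.59), the phosphodiesterases Pde1b (−0.56) and Pde7b (−0.43), the G protein subunits Gnal (−0.22) and Gng7 (−0.16) and the calcineurin subunit Ppp3ca (−0.39) fell. Arpp19, an inhibitor of protein phosphatase 2A, measured 506 to 590 CPM in HttQ111/+ and 816 to 910 CPM in Htt+/+ mice (log2 fold change −0.71, adjusted p = 3.20e-12). Of the regulatory subunits of protein kinase A, Prkar1a (0.05, adjusted p = 0.0592) and Prkar2b (−0.10, adjusted p = 0.0786) were not called. Prkar1b measured 388 to 404 CPM against 320 to 337 CPM (0.26, adjusted p = 5.09e-08) and Prkar2a rose by 0.20, as did Pde4d (0.24). On library totals 9 of the 27 were higher and 12 lower.

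Neuromodulator receptors showed 10 of 24 tested genes lower (41.7%) and 3 higher (12.5%), beside 10.2% and 10.9% of all genes. Besides the receptors of the spiny neuron lists, the delta opioid receptor Oprd1 (−0.50), the serotonin receptors Htr1b (−0.53) and Htr4 (−0.43) and the muscarinic receptors Chrm3 (−0.34) and Chrm5 (−0.75) fell. Htr2c, the serotonin 2C receptor gene, was the clearest increase, at 99.2 to 117 CPM (median 105) in HttQ111/+ and 54.7 to 71.6 CPM (median 66.6) in Htt+/+ mice. The groups were apart, and the log2 fold change was 0.72 (SE 0.0608, adjusted p = 8.12e-11). Oprl1, the nociceptin receptor gene, rose by 0.41. Htr2a rose by 0.27 with an adjusted p of 0.0494, a call that was kept when 4 of the 12 mice were left out in turn and lost with each of the other mice.

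Regulators of G protein signalling (RGS proteins speed the shut-off of G proteins) were lower for 9 of 18 tested genes and higher for 2. These are 50% and 11.1%, beside 10.2% and 10.9% of all genes. Rgs14 measured 40.5 to 55.5 CPM in HttQ111/+ and 85.1 to 96.0 CPM in Htt+/+ mice (log2 fold change −0.90, adjusted p = 3.05e-12), and Rgs4 (−0.63) and the striatal Rgs9 (−0.55) fell without overlap. Rgs19 rose from 7.58 to 9.35 CPM in Htt+/+ mice to 12.5 to 13.4 CPM in HttQ111/+ mice (0.62, adjusted p = 7.65e-07). Rgs13, close to the limit of detection, was 0.350 to 0.703 CPM against 0.105 to 0.348 CPM (1.57, adjusted p = 1.63e-06).

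Glutamate receptors had 7 of 23 lower (30.4%) and 0 higher, including Grik2 (−0.37), the metabotropic receptors Grm5 (−0.38) and Grm3 (−0.24), and the NMDA receptor subunit Grin2b (−0.33). On library totals 6 were lower and 3 higher. GABA-A receptors had 2 of 13 lower (15.4%) and 1 higher (7.69%), near the 10.2% and 10.9% of all genes, and on library totals 2 lower and 3 higher. The extrasynaptic subunit Gabrd fell from 125 to 133 CPM in Htt+/+ mice to 87.8 to 104 CPM in HttQ111/+ mice (−0.42, adjusted p = 1.64e-07), and Gabra4 fell by 0.23. Potassium channel genes were lower in 16 of 77 tested (20.8%) and higher in 4 (5.19%), beside 10.2% and 10.9% of all genes. Kcnab1, an auxiliary subunit, measured 350 to 410 CPM against 518 to 580 CPM (−0.50, adjusted p = 2.07e-11), and Kcnh5 (−0.74) and the background channel Kcnk2 (−0.44) also fell. Kcng1, a silent subunit, rose from 15.02 to 18.6 CPM in Htt+/+ mice to 22.03 to 30.6 CPM in HttQ111/+ mice (0.72, adjusted p = 1.13e-08). Sodium and calcium channel genes were lower in 10 of 36 (27.8%) and higher in 3 (8.33%). Cacnb2 (−0.46) and Cacna2d3 (−0.30) were among the first and Scn9a (0.61) and Scn3b (0.21) among the second. Genes of transmitter release had 6 of 35 higher and 6 lower (17.1% each). These counts were 11 and 5 on library totals and 2 and 5 in lanes 3, 4 and 5 alone. Syp, which encodes the vesicle protein synaptophysin, measured 588 to 621 CPM against 430 to 469 CPM (0.41, adjusted p = 5.86e-11), Sv2a rose by 0.17, and the calcium sensors Syt2 (−0.51) and Syt9 (−0.42) fell.

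Genes induced by neuronal activity were lower or not called. Of 26 tested immediate early genes, 7 were lower (26.9%) and 0 higher, beside 10.2% and 10.9% of all genes, with a median of −0.207. Homer1, a scaffold gene of the postsynapse, measured 120 to 143 CPM in HttQ111/+ and 179 to 196 CPM in Htt+/+ mice (log2 fold change −0.53, adjusted p = 1.04e-07). Egr2 lay at 9.91 to 16.0 CPM against 19.4 to 33.7 CPM (−0.92, adjusted p = 0.00810), and Egr1, Egr3, Ier5, Jun and Per1 fell by 0.20 to 0.42. With lane as a covariate, 4 of the 26 were called lower. Clock genes were lower in 8 of 17 tested (47.1%) and higher in 0, with a median of −0.217. The activator gene Npas2, a partner of Bmal1, measured 40.5 to 50.9 CPM against 57.9 to 64.7 CPM (−0.43, adjusted p = 6.63e-06). The clock gene Ciart (−0.61, listed as Gm129), the output factors Dbp (−0.43), Hlf (−0.30) and Tef (−0.22) and the repressors Per1 (−0.28), Per2 (−0.26) and Per3 (−0.30) fell. Arntl (−0.17, adjusted p = 0.207), Clock (−0.11, adjusted p = 0.248) and Cry2 (0.00, adjusted p = 0.949) were not called. Of neurotrophins and their receptors, 4 of 11 were lower (36.4%), among them the sorting receptor Sort1 (−0.21) and Ntrk3 (−0.19), and 0 higher.

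**Figure D3:**
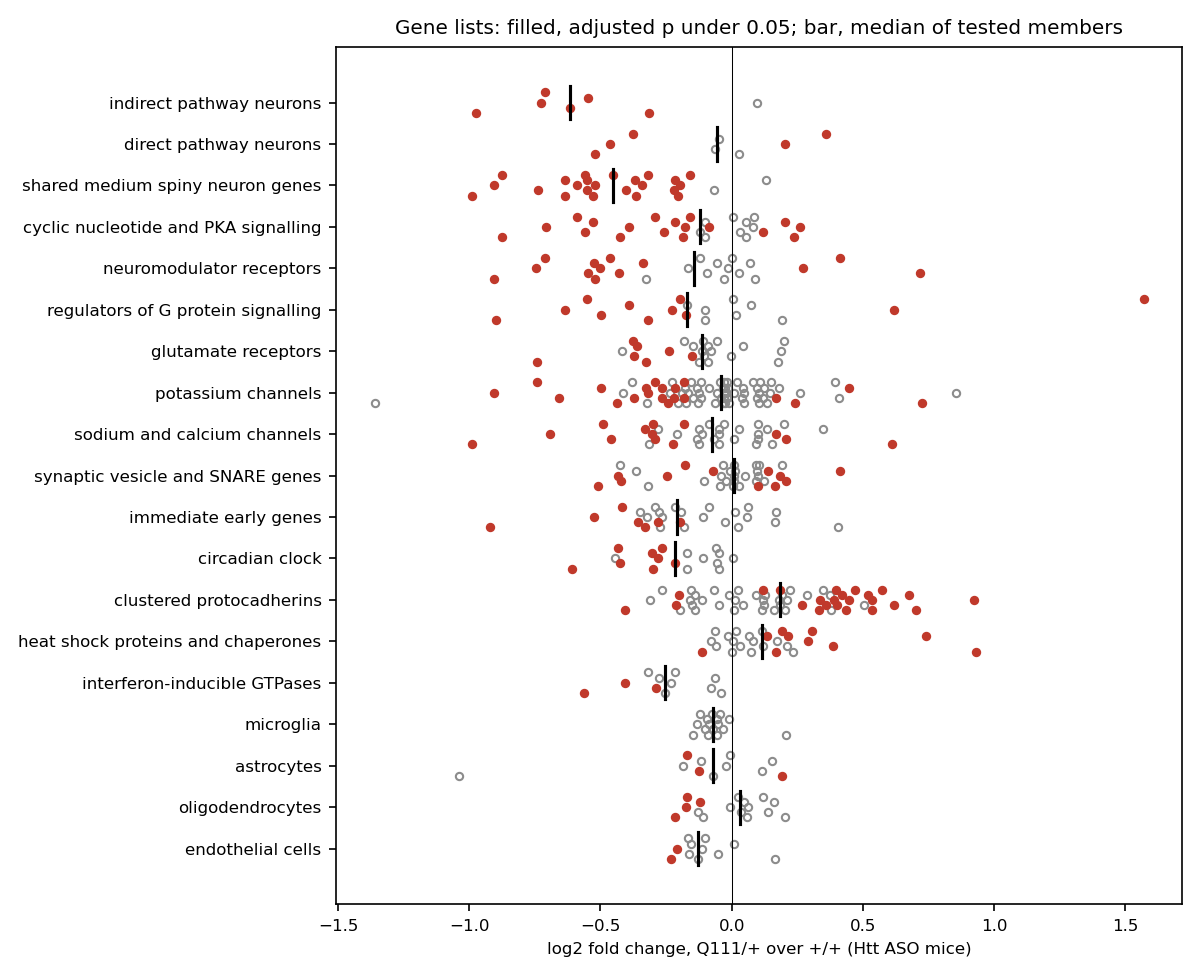
Each row is a gene list and each point 1 tested member, placed by its log2 fold change of HttQ111/+ over Htt+/+ mice on Htt ASO. Filled points have an adjusted p under 0.05 and bars mark the median of the tested members, at −0.614 for indirect pathway, −0.0553 for direct pathway and 0.185 for clustered protocadherin genes.

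Wt1, a zinc finger transcription factor gene of the developing kidney and gonad, had the largest log2 fold change among the genes named. It was listed at 0 to 0.184 CPM in Htt+/+ mice (median 0.0805) and at 0.826 to 2.51 CPM in HttQ111/+ mice (median 2.19). The lowest HttQ111/+ mouse still lay above the highest Htt+/+ mouse, and the fitted log2 fold change was 4.66 (SE 0.554, adjusted p = 9.17e-08), a size that depends on how values near 0 are handled. Sfmbt2, a Polycomb-related gene, measured 6.47 to 9.37 CPM against 2.28 to 3.55 CPM (1.45, adjusted p = 1.26e-09), and Rprm, which encodes a p53-induced cell cycle inhibitor, 9.94 to 10.8 CPM against 3.46 to 5.56 CPM (1.32, adjusted p = 8.77e-11). Abhd1 (1.30), the delta-type protocadherin gene Pcdh20 (14.03 to 18.67 CPM against 6.69 to 8.18 CPM), the desmosomal cadherin gene Dsg2 (1.095), Insyn2b (1.09, listed as EG574403) and Klhl14 (1.08) completed the 8 largest. Islr2, a neuronal leucine-rich repeat gene, measured 42.3 to 55.02 CPM (median 48.2) against 26.7 to 31.8 CPM (median 28.7), apart in all mice, with a log2 fold change of 0.73 (SE 0.106, adjusted p = 2.96e-06). N4bp2, listed as B3bp, measured 8.11 to 13.5 CPM (median 10.4) against 5.62 to 9.56 CPM (median 7.34). Its groups overlapped, and the log2 fold change was 0.48 (SE 0.144, adjusted p = 0.0148; exact permutation p = 0.0152).

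Beyond Ddit4l, the largest decreases were Tmprss6 (−2.11), Gpx6 (−1.97), BC049352 (−1.92), Cpne9 (−1.68), Ryr1 (−1.53), Phex (−1.52) and Il2rb (−1.50). Gpx6, a glutathione peroxidase gene, measured 3.004 to 6.16 CPM in HttQ111/+ and 14.1 to 20.7 CPM in Htt+/+ mice (SE 0.173, adjusted p = 2.02e-10). Ryr1, the calcium release channel gene, measured 32.2 to 50.8 CPM against 87.2 to 142 CPM (SE 0.123, adjusted p = 3.62e-11). BC049352 was listed at 0 in 1 HttQ111/+ mouse, and without that mouse its log2 fold change was −0.80, still called. Of 25 antioxidant genes tested, 4 were higher (16%) and 2 lower (8%), beside 10.9% and 10.2% of all genes. Prdx2 (0.19), Txn1 (0.19), Sod2 (0.12) and Txnrd1 (0.11) rose, and Prdx5 fell by 0.13 besides Gpx6.

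Clustered protocadherins, cell surface molecules whose isoforms give neurons their individual adhesion codes, had the most increases of the lists described. All 57 were tested, and 21 (36.8%) were higher and 3 (5.26%) lower, beside 10.9% and 10.2% of all genes, with a median of 0.185. The beta cluster gave 10 of 21 higher and 0 lower (median 0.333), the gamma cluster 7 of 22 higher and 1 lower (0.106), and the alpha cluster 4 of 14 higher and 2 lower (0.246). Pcdhb3 measured 7.73 to 10.6 CPM in HttQ111/+ and 4.38 to 5.44 CPM in Htt+/+ mice (log2 fold change 0.92, adjusted p = 2.71e-10), and Pcdhga4 38.1 to 43.9 CPM against 26.2 to 30.5 CPM (0.54, adjusted p = 4.56e-09). Pcdhac1 (−0.41), Pcdhgb7 (−0.21) and Pcdha12 (−0.20) fell. The call of Pcdha12 was kept in 7 of 11 alternatives and when 4 of the 12 mice were left out in turn. The isoforms are near-identical in parts, so the division of shared reads among them by the counting makes single members uncertain.

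Heat shock and chaperone genes had 9 of 26 members higher (34.6%) and 1 lower (3.85%), beside 10.9% and 10.2% of all genes. Their median was 0.116. Hspa5, the chaperone BiP of the endoplasmic reticulum, measured 432 to 516 CPM (median 483) in HttQ111/+ and 367 to 411 CPM (median 386) in Htt+/+ mice. The groups were apart (log2 fold change 0.29, SE 0.0681, adjusted p = 0.00179). Stip1, which links HSP70 to HSP90, rose by 0.21 and Dnajb2 (listed as Dnajb10) by 0.19. The inducible Hspa1a measured 5.38 to 11.7 CPM against 3.33 to 7.08 CPM (0.74, adjusted p = 0.0110) and Hspa1b 5.54 to 17.8 CPM against 3.78 to 7.99 CPM (0.93, adjusted p = 0.0336), both with overlap. These 2 genes are near-identical and share reads. Bag3 (0.31), Hspb1 (0.39), Hsp90ab1 (0.14) and Hspa2 (0.17) also rose, and Hspa4 fell by 0.11. In saline mice 1 of the 26 was higher and 0 lower, and in control ASO mice 2 were higher and 2 lower, with medians of 0.0284 and 0.0358. The difference between treatments did not pass the test for any of the 26: 3 had an unadjusted interaction p under 0.05 against saline and 0 against control ASO, and the smallest adjusted p were 0.850 and 0.999. With the mice of lanes 3, 4 and 5 alone 1 of the 26 was called higher, and on library totals 14.

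**Figure D4:**
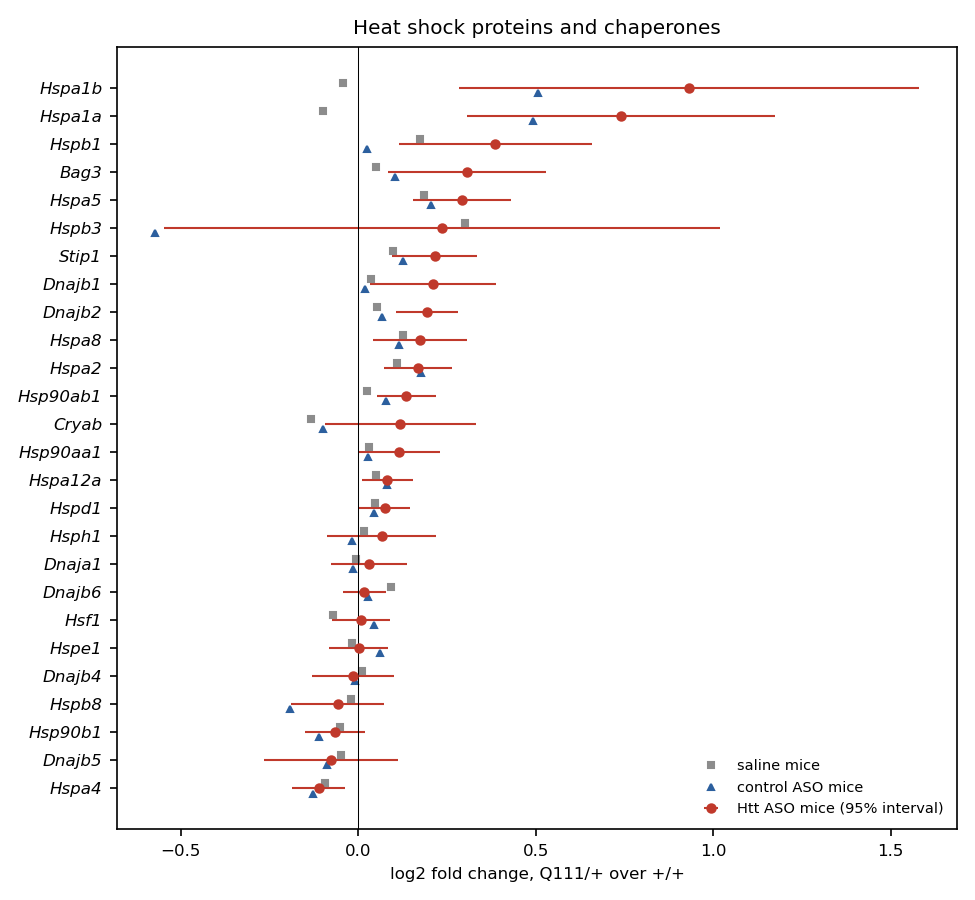
Red points are log2 fold changes of HttQ111/+ over Htt+/+ mice on Htt ASO with their 95% intervals for the 26 heat shock and chaperone genes, beside the same quantity in saline (grey squares) and control ASO mice (blue triangles). Hspa1b and Hspa1a, which share reads, lie at 0.93 and 0.74 on Htt ASO and at −0.04 and −0.10 on saline. Of the 10 genes called on Htt ASO, 8 had the same sign on saline and 10 on control ASO. The difference between treatments had an unadjusted interaction p under 0.05 for 3 of the 26 against saline and 0 against control ASO, and 0 passed after adjustment.

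Mismatch repair genes and modifiers of CAG expansion had 3 of 14 higher (21.4%) and 1 lower (7.14%), beside 10.9% and 10.2% of all genes. Among them Rrm2b, which encodes a ribonucleotide reductase subunit, rose by 0.18 and Msh6 by 0.16 on the log2 scale, while Msh3 (0.07, adjusted p = 0.301) was not called. The call of Msh6 was kept when 9 of the 12 mice were left out in turn. Of this list 7 were higher and 0 lower on library totals, and 3 and 0 with lane as a covariate. Autophagy genes had 4 of 26 higher (15.4%), Ulk1 (0.27) and the cargo receptor Sqstm1 (0.12) among them, and 3 lower (11.5%). On library totals 11 were higher and 0 lower, and in lanes 3, 4 and 5 alone 1 and 0. Respiratory chain and ATP synthase genes had 6 of 78 higher (7.69%) and 2 lower (2.56%), and proteasome genes 1 of 37 higher (2.7%) and 0 lower. Cytosolic ribosomal protein genes had 3 of 76 each way (3.95%). The shares of the respiratory chain, proteasome and ribosomal lists lay below those of all genes. The last 3 groups depend on the scaling as well: on library totals 25, 19 and 19 members were higher. In control ASO mice 21 respiratory chain and 11 proteasome genes were called higher, and no member's difference between treatments passed the adjusted test. Sterol synthesis genes had 3 of 21 higher (14.3%) and 1 lower, against 8 and 1 on library totals and 1 and 2 with lane as a covariate. Homeobox and developmental regulators had 3 of 43 tested higher (6.98%) and 5 lower (11.6%), near the 10.9% and 10.2% of all genes, and 7 higher and 5 lower on library totals. The other 54 of the 97 listed were too low to test. Pou3f1 (−0.39) and Dlx6 (−0.27) fell.

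Markers of other cells of the tissue were measured beside these results. Microglia had 0 of 16 markers called in either direction, with a median of −0.0726 and summed levels of 702.7 to 797.6 CPM in HttQ111/+ and 729.6 to 859.3 CPM in Htt+/+ mice. Of the 16, 15 had negative values, and with lane as a covariate 7 were called lower. In control ASO mice 3 of these markers were called lower, and in saline mice 0. Astrocytes had 1 of 11 higher (9.09%) and 2 lower (18.2%), beside 10.9% and 10.2% of all genes. The glutamate transporter Slc1a3 (−0.13) and glutamine synthetase Glul (−0.17) were lower, and summed levels were 3100 to 3517 against 3487 to 3885 CPM. Slc1a2 ranged from 41.1 to 180 CPM against 51.0 to 291 CPM and was not called (−1.04, adjusted p = 0.0992). Oligodendrocytes had 4 of 16 lower (25%), among them the myelin genes Mal (−0.22) and Mobp (−0.17), and 0 higher. Of the 16, 9 had positive values and the median was 0.0309, and on library totals 1 was lower and 2 higher. Endothelial cells had 2 of 11 lower (18.2%) and 0 higher, and their summed levels did not overlap (393.5 to 435.1 against 450.2 to 508.6 CPM). Interneurons had 1 of 13 lower (Tacr1, −0.16), cortical neurons 1 of 9 higher (Cux2, 0.33, listed as Cutl2) although the other 8 were negative (median −0.135, and −0.484 in lanes 3, 4 and 5), and the choroid plexus and blood lists 0 of 8 and 0 of 3 called. Choroid plexus transcripts varied between mice of both groups, Ttr from 15.9 to 110.9 CPM in HttQ111/+ and from 17.3 to 70.1 CPM in Htt+/+ mice. The part of cell numbers in the results above was not tested.

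Interferon-induced genes, which answer type I and II interferons, had few calls. All 11 tested interferon-inducible GTPases had negative log2 fold changes (median −0.255). The threshold was passed by 3 of them (27.3%), beside 10.2% of all genes called lower. Gbp4 measured 2.94 to 4.88 CPM in HttQ111/+ and 5.29 to 7.75 CPM in Htt+/+ mice (log2 fold change −0.56, SE 0.152, adjusted p = 0.00701), without overlap. Tgtp1 (−0.29, listed as Tgtp, adjusted p = 0.0416) and Ifi47 (−0.41, adjusted p = 0.0460) overlapped, and their calls were kept without 3 and 4 of the 12 mice and lost without each of the others. The same 11 genes gave 0 calls in saline and 0 in control ASO mice, with medians of −0.183 and −0.0918, and none of their differences between treatments passed the adjusted test. Of 30 interferon response genes, Ifi27 (−0.79) and Oas2 (−0.37) were lower (6.67%) and 0 were higher, with a median of −0.17. Oas2 was called in 4 of 11 alternatives and without 6 of the 12 mice, and Ifi27 without 9 of the 12. Leaving out the left hemistriatum mouse gave 4 lower in each list. Class I antigen presentation had 3 of 16 higher (18.8%) and 2 lower (12.5%), beside 10.9% and 10.2% of all genes. The proteasome activators Psme1 (0.32) and Psme2 (0.19) rose, as did the class I gene H2-T22 (0.131 to 0.225 when 1 mouse was left out). H2-K1 (−0.20) and B2m (−0.21) fell, both with overlap. With each of the 12 mice left out in turn, Psme1 was always called. The calls of Psme2, H2-T22, H2-K1 and B2m were kept 6, 4, 7 and 6 times. On library totals 4 were higher and 0 lower.

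Whether the genotype difference on Htt ASO departed from that in the other treatments was tested gene by gene. In saline mice 1530 genes (8.67%) were called higher and 1548 (8.78%) lower, and in control ASO mice 1773 (10.1%) and 1493 (8.46%). The test of the difference between genotype effects called 0 of 17639 genes against saline (973 at an unadjusted p under 0.05, smallest adjusted p 0.572) and 0 against control ASO (713, 0.999), and edgeR (963 unadjusted against saline) and DESeq2 (902 against saline, 657 against control ASO) called 0 as well. The genotype contrasts of the 3 treatments share no mice. Of the 3733 genes called on Htt ASO, 3600 had the same sign on saline and 3646 on control ASO. On saline 2093 were also called, 56.1% of the Htt ASO calls and 68.0% of the saline calls, all in the same direction. On control ASO 2238 were also called, 60% of the Htt ASO and 68.5% of the control ASO calls, 2237 of them in the same direction. Calls in each of the 3 treatments were shared by 1595 genes. Across all tested genes, which are not independent of one another, the log2 fold changes on Htt ASO had a Pearson correlation of 0.41 and a Spearman correlation of 0.543 with those on saline, and 0.435 and 0.612 with those on control ASO.

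Ddit4l had log2 fold changes of −1.74, −1.65 and −1.72 on Htt ASO, saline and control ASO, Drd1a of −0.52, −0.46 and −0.49, and Penk of −0.98, −0.94 and −0.86. Islr2 gave 0.73, 0.36 and 0.61, a difference of 0.37 from saline with an adjusted p of 0.850. Dsg2 gave 1.095, 0.69 and 0.34, a difference of 0.75 from control ASO with an adjusted p of 0.999. There were 997 genes called on Htt ASO and under neither other treatment, 549 higher and 448 lower, and 837 of them had the same direction under both. The smallest adjusted p among them belonged to mKIAA1026 (−0.36), the malic enzyme gene Me2 (−0.38), Mcee (0.29), which encodes an enzyme of propionate breakdown, Fam241a (−0.66, listed as 5730508B09Rik) and Hpf1 (−0.20, listed as 2700029M09Rik). Me2 measured 31.7 to 42.0 CPM in HttQ111/+ and 43.4 to 50.3 CPM in Htt+/+ mice on Htt ASO, with log2 fold changes of −0.14 on saline and −0.14 on control ASO. None of the 997 had an adjusted p under 0.05 for the difference itself.

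**Figure D5:**
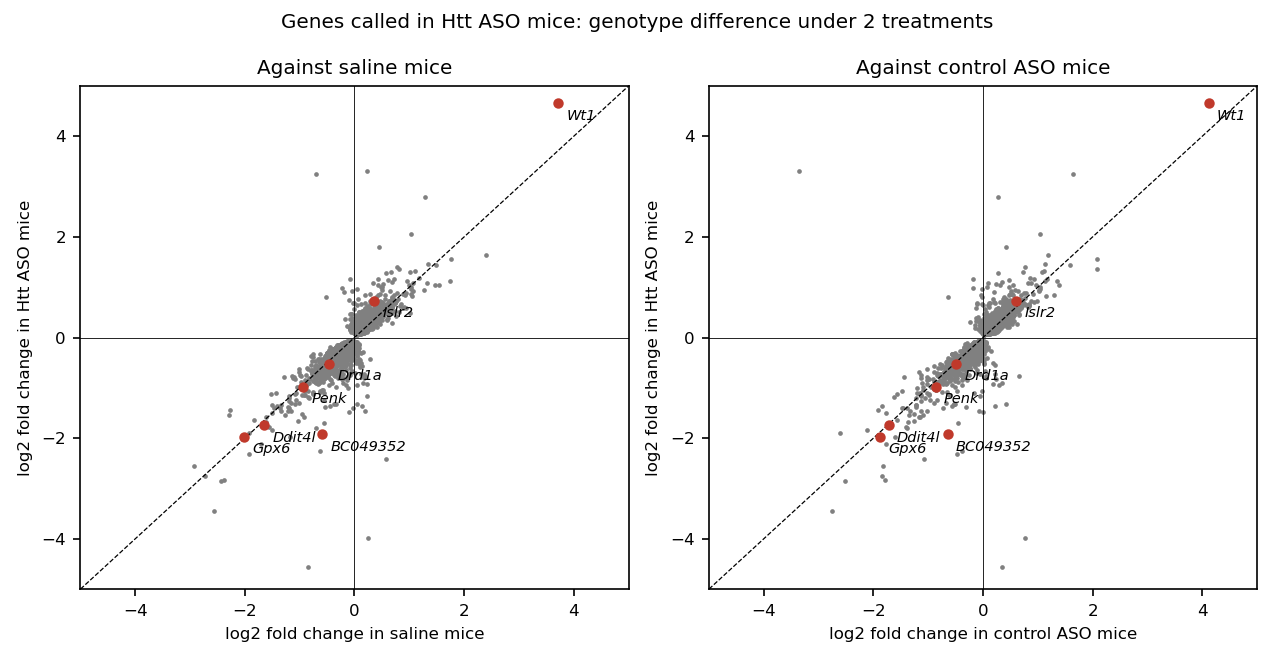
Points are the 3733 genes called on Htt ASO, with their log2 fold change of HttQ111/+ over Htt+/+ mice on Htt ASO on the y axis and the same quantity in saline (left) or control ASO mice (right) on the x axis. The dashed line marks equal values, 3600 and 3646 points lie in the quadrants of equal sign, and a few genes of low count, such as BC049352, lie far from the line.

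The smallest p values for a difference between treatments were as follows. Against saline the genes were Xlr (−0.43 on Htt ASO, 0.28 on saline, unadjusted p of the difference 3.24e-05, adjusted p = 0.572), Ssh3 (0.26 and −0.07, adjusted p = 0.725) and Hsf5 (0.35 and −0.58, adjusted p = 0.850). Against control ASO they were mFLJ00332 (−0.74 and 1.17), Nudt14 (0.39 and −0.12) and Jsrp1 (−0.67 and 0.04), each with an adjusted p of 0.999. None passed the threshold.

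Lanes were compared within the 3 that held both genotypes. Lane 3 held 2 HttQ111/+ mice and 1 Htt+/+ mouse, lane 4 held 1 of each, and lane 5 held 1 HttQ111/+ and 2 Htt+/+ mice. Of the 160 named genes that were called, 150 had the same direction of difference in all of lanes 3, 4 and 5. These genes were chosen from the same mice. For those without overlap between the genotypes, the same direction in each lane follows from the lack of overlap. The count is therefore a description and not a separate test. Ddit4l gave log2 differences of −1.70, −1.59 and −1.75, Drd1a of −0.51, −0.35 and −0.44, Islr2 of 0.77, 0.80 and 0.54 and N4bp2 of 0.78, 0.79 and 0.66. In lane 6 lay 2 Htt+/+ mice, and in lanes 7 and 8 1 HttQ111/+ mouse each, without a mouse of the other genotype on Htt ASO beside them.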

How the data were processed

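Striatal RNA of 35 mice was sequenced from stranded mRNA libraries. The authors aligned reads to the mouse transcriptome (MGSCv37, mm9) with Bowtie 0.12.9 and deposited expected counts per gene from RSEM 1.1.18, without scaling; RSEM shares out reads that fit several genes, and 55.6% of values were whole numbers. Tests used R 4.3.3, limma 3.58.1 and edgeR 4.0.16: of 22099 genes, 17639 passed filterByExpr (minimum count 10, total 15), TMM and voom were applied, and a model with 6 group means over all 35 mice gave limma's moderated test (29 residual and 4.3 prior degrees of freedom), with Benjamini-Hochberg adjustment and a threshold of 0.05. For edgeR (quasi-likelihood) and for DESeq2 1.42.0, both run as alternatives, expected counts were rounded. The code was tested on simulated data. Cages are not named for each mouse, and p-values measure the spread between mice.

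The mice were taken by their labels alone. The gene lists and the genes in them were chosen with earlier results of these data known. Genes named were Htt, 4 transcripts named in the paper, the 10 smallest adjusted p, the 8 largest changes each way (mean of at least 1 CPM, no overlap), up to 3 called members of each list and direction (or the 2 most abundant where none was called), the 3 smallest p of each interaction and the 5 smallest adjusted p among genes called on Htt ASO alone. Other list members are named with their values as a description, chosen after their values were seen. No 2 of the 30 pairs of mice within a group were duplicates (chi-square per degree of freedom 3.573 to 14.54). A search of promoters for the cAMP response element was void, since a promoter window was available for 66.6% of tested genes. Older symbols in the deposited table were matched to current ones through a gene name table, and the Htt sequence came from GENCODE M21. Some genes chosen by these rules are not reported here.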

Additional observations from a re-analysis of the deposited data

Results flagged for a closer look

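Within groups of 6 mice, 1 mouse stood apart from the other 5 in 22 of 328 gene and group combinations among the genes named (6.71%) by Dixon's test of the gap to the nearest mouse at its 95% critical value, where chance gives about 1 in 20. In HttQ111/+ mice the highest value stood apart for Pde10a (1513.12 CPM), Arpp19 (590.28 CPM) and Rgs4 (608.53 CPM) in replicate 6, for H2-K1 (47.86 CPM), B2m (104.46 CPM) and Prdx2 (162.02 CPM) in replicate 3, for Scn9a (11.29 CPM) and Rrm2b (66.55 CPM) in replicate 2, and for Ttr (110.86 CPM) in replicate 1. The lowest value stood apart for Dsg2 (2.8 CPM, replicate 1), BC049352 (0.0 CPM, replicate 3), Egr3 (162.14 CPM, replicate 4) and Pcdhb9 (17.72 CPM, replicate 5).

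In Htt+/+ mice the highest value stood apart for Abcb1a (59.78 CPM), Oas2 (7.75 CPM) and Calcoco1 (135.36 CPM) in replicate 3, for Rgs13 (0.35 CPM) in replicate 5 and for Hsf5 (1.17 CPM) in replicate 1. The lowest value stood apart for Drd2 (170.33 CPM, replicate 2), Mal (438.16 CPM, replicate 5), Clic6 (20.97 CPM, replicate 3) and Uqcrb (64.69 CPM, replicate 1). Replicate 3 of each genotype had 4 such values, the most of any mouse.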

How the results depend on the processing

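The count of 3733 genes stayed within 1.5 times under 10 of 11 alternatives and was 3125 to 3638 when 1 mouse was left out, with 2982 to 3378 of the genes shared. The exception was the analysis of lanes 3, 4 and 5 alone, with fewer mice, which called 1912 genes (1754 shared). Library totals called 5324 genes, 3179 of them shared. Differences between treatments gave 0 calls under every alternative run and without each mouse. The Htt difference (−0.25) passed the threshold with edgeR (−0.25), DESeq2 (−0.26), a mean of at least 1 CPM (−0.25) and lane as a covariate (−0.29), and missed it under the other 7 alternatives, down to −0.10 (adjusted p = 0.594) in lanes 3, 4 and 5 and −0.19 on library totals. Without 1 mouse it lay between −0.32 and −0.19, and it was called without HttQ111/+ replicate 4 (−0.30) and without Htt+/+ replicates 3 (−0.27) or 6 (−0.32). The cause was not tested. Of 160 named genes called, 103 were called under every alternative and without each mouse, and 0 changed sign. Among genes not called, Ttr turned to −0.26 with lane as a covariate and −0.14 in lanes 3, 4 and 5, and lay between −0.28 and 0.26 without 1 mouse. Clic6 lay between −0.0081 and 0.0915, Hbb-b1 between −0.32 and 0.0260, and Hba-a2 between −0.33 and 0.0276. No paired analysis was possible because the numbers in the mouse names do not tie mice of the 2 genotypes together; with blocks formed by the letters in those names 3720 genes were called (3614 shared, consensus correlation 0.0909).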
